A study of Mus musculus with 4 samples.

Results

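The 9 genes described here are the mouse Ikaros family (*Ikzf1*, *Ikzf2*, *Ikzf3*, *Ikzf4* and *Ikzf5*) and the MEF2 family (*Mef2a*, *Mef2b*, *Mef2c* and *Mef2d*), taken by name from the 55359 genes in the count table. All 9 were in the table, and 8 had enough counts to be tested. RNA was measured by bulk RNAseq in T8, a leukemia cell line grown from a single primary tumor of an *Irf4*-/- mouse, so that both groups carry the *Irf4*-/- genotype and stand for 1 tumor. The control group received a retrovirus coding for GFP alone (EV-RV, 2 libraries) and the other a retrovirus coding for GFP plus IRF4 (IRF4-RV, 2 libraries), and viable cells were taken a day later. The protocol text names T11 cells where titles and tissue name T8, and the libraries were used as T8. The labels call the 2 libraries of a group biological replicates.

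Ikaros proteins are zinc finger transcription factors that bind DNA through their N-terminal fingers and pair with each other through C-terminal fingers. Ikaros (*Ikzf1*) and Aiolos (*Ikzf3*) act in B-cell progenitors at the pre-B cell receptor checkpoint, where they repress surrogate light chain genes and *Myc* and are needed for the exit of large cycling pre-B cells into light chain recombination. *Ikzf1* is a tumor suppressor of human B-cell precursor leukemia. MEF2 proteins share an N-terminal MADS box, bind an AT-rich element and switch between repression, with class IIa histone deacetylases, and activation downstream of calcium and MAP kinase signals. *Mef2c* and *Mef2d* act in early B lymphopoiesis downstream of the pre-B cell receptor, and *MEF2D* fusions define a subtype of human leukemia.

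The libraries held between 31230223 and 37817752 counts, and 3 counts, below which no level is read here, stood for 0.0824 to 0.0952 CPM (counts scaled to library size with TMM factors). The EV-RV libraries held 8070 and 7600 counts of *Irf4* and the IRF4-RV libraries 95578 and 90693 (log2 fold change 3.46, SE 0.0907, adjusted p = 1.14e-06 by edgeR). The controls, given GFP alone and labelled *Irf4*-/-, thus held 241.9 and 241 CPM of *Irf4*. Counts per gene do not show whether these reads lie in the deleted part, nor do they part vector from locus after IRF4-RV. Of 14637 genes tested, 29.7% were called at an FDR of 0.1, 16% higher (2340 genes) and 13.7% lower (2009 genes) with IRF4-RV. Scaling by library size alone turned this split into 1743 higher and 2867 lower. The B-lineage gene *Cd79a* (between 29068 and 33036 counts) was expressed in every library, while *Rag1* had at most 1 count. Of 12 B-lineage markers, 11 were tested and 45.5% of these were called, against 29.7% of all genes tested. *Ptprc*, *Vpreb3* and *Blnk* were higher with IRF4-RV, and *Vpreb1* and *Igll1* lower. Of 13 T and NK cell markers, 10 were too low to be tested and 4 were at 0 in every library. Of 15 macrophage and granulocyte markers, 12 were too low to be tested, and the list summed to 53 and 49 counts in the controls against 363 and 334 after IRF4-RV, mostly *Mrc1* and *Ly6g*. The summed level of 6 stromal markers, most of it from collagens and *Cxcl12*, was 46.8 and 87.4 CPM in the controls, 45.9 CPM in IRF4-RV replicate 1 and 217.3 CPM in IRF4-RV replicate 2. Since the last library stood apart, changes of the members are also given without that library. In bulk RNA, a change in the number of expressing cells and a change in the RNA per cell cannot be told apart.

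Positions are given on GRCm38. *Ikzf1* (ENSMUSG00000018654) lies on the plus strand of chromosome 11 from 11685003 to 11772926, and *Ikzf3* (ENSMUSG00000018168) on the minus strand of the same chromosome from 98464902 to 98546031. *Ikzf2* (ENSMUSG00000025997) is on chromosome 1 from 69531214 to 69687245, *Ikzf4* (ENSMUSG00000002578) on chromosome 10 from 128630843 to 128645991 and *Ikzf5* (ENSMUSG00000040167) on chromosome 7 from 131388652 to 131410521, all on the minus strand. *Mef2a* (ENSMUSG00000030557) is on the minus strand of chromosome 7 from 67231163 to 67372858. *Mef2b* (ENSMUSG00000079033) is on chromosome 8 from 70139711 to 70167488, *Mef2c* (ENSMUSG00000005583) on chromosome 13 from 83504034 to 83667080 and *Mef2d* (ENSMUSG00000001419) on chromosome 3 from 88142372 to 88172086, all on the plus strand. The annotation holds 31 transcripts of *Mef2c*, the most of the 9 genes, and 6 of *Ikzf1*. Counts per gene do not tell these transcripts apart, including the short *Ikzf1* forms that lack DNA-binding fingers.

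RefSeq promoter windows (GRCm38.p6) were found for 6 of the 9 genes, 9 windows in all. The 250 bases before a RefSeq start site are shown for 3 members that rose with IRF4-RV. The *Mef2d* and *Mef2c* windows shown end just before the annotated gene. The *Ikzf1* window shown lies inside the annotated gene, which begins at 11685003. For the genes with several windows the most upstream is shown, and which start the T8 cells used was not analysed here. Capitals mark CpG dinucleotides, and each sequence reads 5′ to 3′ on the strand of the gene. The windows are chr11:11685675-11685924 for the upstream of 2 *Ikzf1* windows, chr3:88142122-88142371 for *Mef2d* and chr13:83503784-83504033 for the most upstream of 3 *Mef2c* windows.
Ikzf1: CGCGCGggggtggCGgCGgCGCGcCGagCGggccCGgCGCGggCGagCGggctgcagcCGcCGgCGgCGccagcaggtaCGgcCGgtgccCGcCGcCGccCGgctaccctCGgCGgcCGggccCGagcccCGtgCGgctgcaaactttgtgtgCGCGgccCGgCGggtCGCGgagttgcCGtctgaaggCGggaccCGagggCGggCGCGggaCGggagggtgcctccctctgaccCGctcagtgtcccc
Mef2d: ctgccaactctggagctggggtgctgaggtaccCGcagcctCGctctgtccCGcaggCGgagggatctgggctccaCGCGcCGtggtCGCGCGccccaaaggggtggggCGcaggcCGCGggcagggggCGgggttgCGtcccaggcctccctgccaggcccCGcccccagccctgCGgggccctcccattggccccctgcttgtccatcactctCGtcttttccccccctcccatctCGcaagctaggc
Mef2c: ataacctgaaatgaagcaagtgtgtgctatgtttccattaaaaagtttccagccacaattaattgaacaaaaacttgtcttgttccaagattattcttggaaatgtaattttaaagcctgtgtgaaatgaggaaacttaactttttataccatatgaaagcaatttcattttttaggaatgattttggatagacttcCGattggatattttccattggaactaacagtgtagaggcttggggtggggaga

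The upstream *Ikzf1* window held 44 CpG dinucleotides at 82% G and C, more than in 99.5% of the 32851 windows of this length in the table, whose median was 6, while the other *Ikzf1* window held 1 at 47.6%. The *Mef2d* window held 19 at 73.2% G and C. The *Mef2c* window shown held 1 at 33.6% G and C, and the other *Mef2c* windows held 6 at 44.8% and 4 at 49.6%. The windows were searched on both strands for TGGGAA, a core bound by Ikaros, for GGAA followed after any 2 bases by GAAA, the composite element of IRF4 with an ETS partner, for GAAA followed after any 2 bases by GAAA, the repeat bound by IRF proteins, and for the MEF2 consensus. TGGGAA can share its GGAA with the composite element. None was found in the 9 windows of the members, against 21.6%, 2.3%, 2.98% and 2.92% of all windows in the table, which says only that these letters do not occur in these stretches.

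Levels of different genes were compared as RPKM, the CPM per kilobase of the union of exons. *Ikzf1* was the highest of the 9 genes, at 56.5 and 52.7 RPKM with EV-RV and 83.2 and 76.7 RPKM with IRF4-RV. Its mean exceeded that of 91.3% of the genes tested with EV-RV. *Mef2d* came next, at 28.3 and 26.4 RPKM with EV-RV and 41.3 and 36.3 RPKM with IRF4-RV. With EV-RV, *Mef2a* (5.15 RPKM on average) and *Ikzf3* (5.11) followed with overlapping libraries, and *Mef2c* (3.62) lay below both. With IRF4-RV, *Ikzf3* (9.03) and *Mef2c* (9.004) overlapped and *Mef2a* (5.74) lay below both. With the length of the longest transcript, *Mef2c* overlapped *Ikzf3* with EV-RV (9.07 and 9.71 RPKM) and lay above it with IRF4-RV (22.5 and 17.2 RPKM), so the order of these 2 genes is not settled. *Mef2c* was therefore below *Mef2a* in both EV-RV libraries and above it in both IRF4-RV libraries, and the same held with the longest transcript (9.07 and 13.7 RPKM with EV-RV, 22.5 and 15.2 RPKM with IRF4-RV). *Ikzf5*, *Mef2b* and *Ikzf4* stayed under 1 RPKM in every library.

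Summed over the family, Ikaros transcripts were at 62.9 and 58.1 RPKM with EV-RV and at 93.7 and 85.6 RPKM with IRF4-RV, 48.1% more on average. *Ikzf1* made up 90.3% ± 0.58 (SD, n = 2) of this sum with EV-RV and 89.2% ± 0.553 (SD, n = 2) with IRF4-RV. MEF2 transcripts summed to 38 and 34.9 RPKM with EV-RV and to 57.4 and 50.7 RPKM with IRF4-RV, 48.2% more on average. The *Mef2c* part of the MEF2 sum was 9.89% and 9.99% in the controls but 16.7% and 16.6% after IRF4-RV, so that these libraries did not overlap, and the part of *Mef2a* went from 14.5% and 13.7% to 10.3% and 11%. With the longest transcript as length the *Mef2c* part was 16.9% and 17.1% in the controls, 27.9% and 27.5% after IRF4-RV, that of *Mef2a* 26.2% and 24.9%, then 18.2% and 19.3%, and that of *Ikzf1* in its family 85.1% and 83.3% on average. The size of a share thus depended on the length used, and its direction did not for these 3 genes. These sums and shares are descriptions, since 2 libraries against 2 cannot give a two-sided exact permutation p below 0.333.

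**Figure D1:**
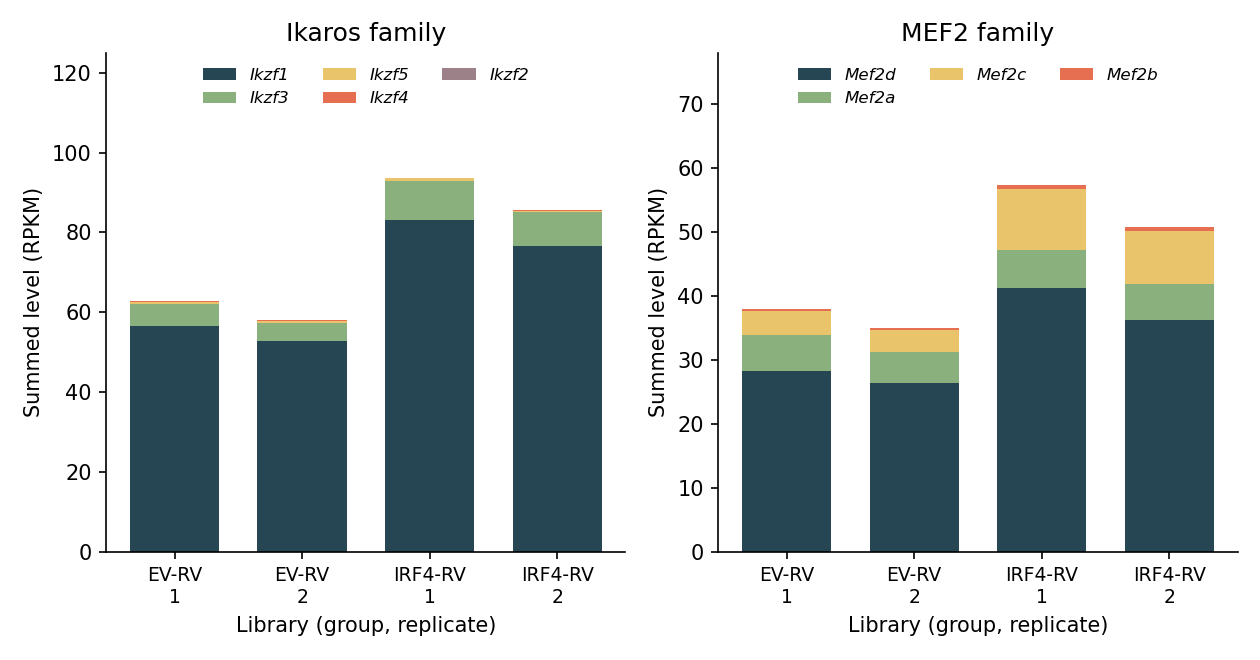
Summed level of the Ikaros family (left) and the MEF2 family (right) in RPKM, with 1 bar for each library and 1 color for each gene. *Ikzf1* and *Mef2d* form most of each bar, and the *Mef2c* part is wider in both IRF4-RV libraries (16.7% and 16.6% of the sum) than in the EV-RV libraries (9.89% and 9.99%).

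In the Ikaros family, *Ikzf1* and *Ikzf3* rose and *Ikzf4* fell with IRF4-RV. *Ikzf1* had 10890 and 9596 counts in the EV-RV libraries and 16279 and 16133 in the IRF4-RV libraries, or 326.4 and 304.4 CPM against 480.7 and 443.1 CPM. Both IRF4-RV libraries were above both EV-RV libraries, the lower of them by 35.8% over the higher EV-RV library. This made a log2 fold change of 0.55 (SE 0.0789, adjusted p = 0.00222 by edgeR), or 0.61 without IRF4-RV replicate 2.

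*Ikzf3*, whose product Aiolos increases as pre-B cells mature, had 1647 and 1265 counts in the controls and 2888 and 2651 after IRF4-RV. This gave 49.4 and 40.1 CPM against 85.3 and 72.8 CPM, without overlap between the groups. The log2 fold change, 0.82 (SE 0.123, adjusted p = 0.00273 by edgeR), lay between 0.68 and 0.97 whichever library was left out, and was 0.93 without IRF4-RV replicate 2. Its interval of 0.53 to 1.11 overlaps that of *Ikzf1*, 0.37 to 0.73, and the difference between the 2 changes was not tested.

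*Ikzf4* encodes Eos, a partner of Foxp3 in regulatory T cells. It had 49 and 57 counts in the controls, against 15 and 18 after IRF4-RV, which is 1.47 and 1.81 CPM against 0.443 and 0.494 CPM. Both IRF4-RV libraries were below both EV-RV libraries. Its log2 fold change of -1.80 (SE 0.358, adjusted p = 0.00972 by edgeR) was the lowest of the 8 members tested and ranked 87 among the 14637 genes tested from the lowest log2 fold change upwards. At these counts its 95% interval reached from -2.63 to -0.96, and the adjusted p by edgeR was 0.0856 without EV-RV replicate 2. Without IRF4-RV replicate 2 the log2 fold change was -1.87. The 13 T and NK cell markers summed to 48.4 and 48.2 CPM in the controls and 33.2 and 32.7 CPM after IRF4-RV, most of it *Trac* and *Zap70*. Of the other 11 markers, *Klrb1c* had between 33 and 54 counts, and the other 10, *Foxp3* and the CD3 chain genes included, had at most 5 counts in any library. Among these, *Cd3e* had 2 and 1 counts in the controls and 0 after IRF4-RV, and *Cd247* had 0, then 4 and 3. Such counts are too few to read a direction. The part of such cells in the fall of *Ikzf4* was not tested.

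*Ikzf2*, which encodes Helios, a factor of T cells and hematopoietic progenitors, had 2 and 3 counts in the EV-RV libraries and 0 in both IRF4-RV libraries. All 4 were at or under 3 counts, so no fold can be given and the gene was not tested. *Ikzf5*, which encodes Pegasus, had 95 and 96 counts in the controls and 124 and 101 after IRF4-RV. Its libraries overlapped in CPM, at 2.85 and 3.05 against 3.66 and 2.77, and the log2 fold change, 0.13 (SE 0.22, adjusted p = 0.736 by edgeR), had a 95% interval from -0.39 to 0.64. *Pstk* on the opposite strand covers 81.3% of the exon bases of *Ikzf5*. The counts of *Pstk* were 405 and 486 in the controls, 329 and 346 after IRF4-RV, and since the use of strand in counting is not given in the sources used here, the level of *Ikzf5* is uncertain.

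**Figure D2:**
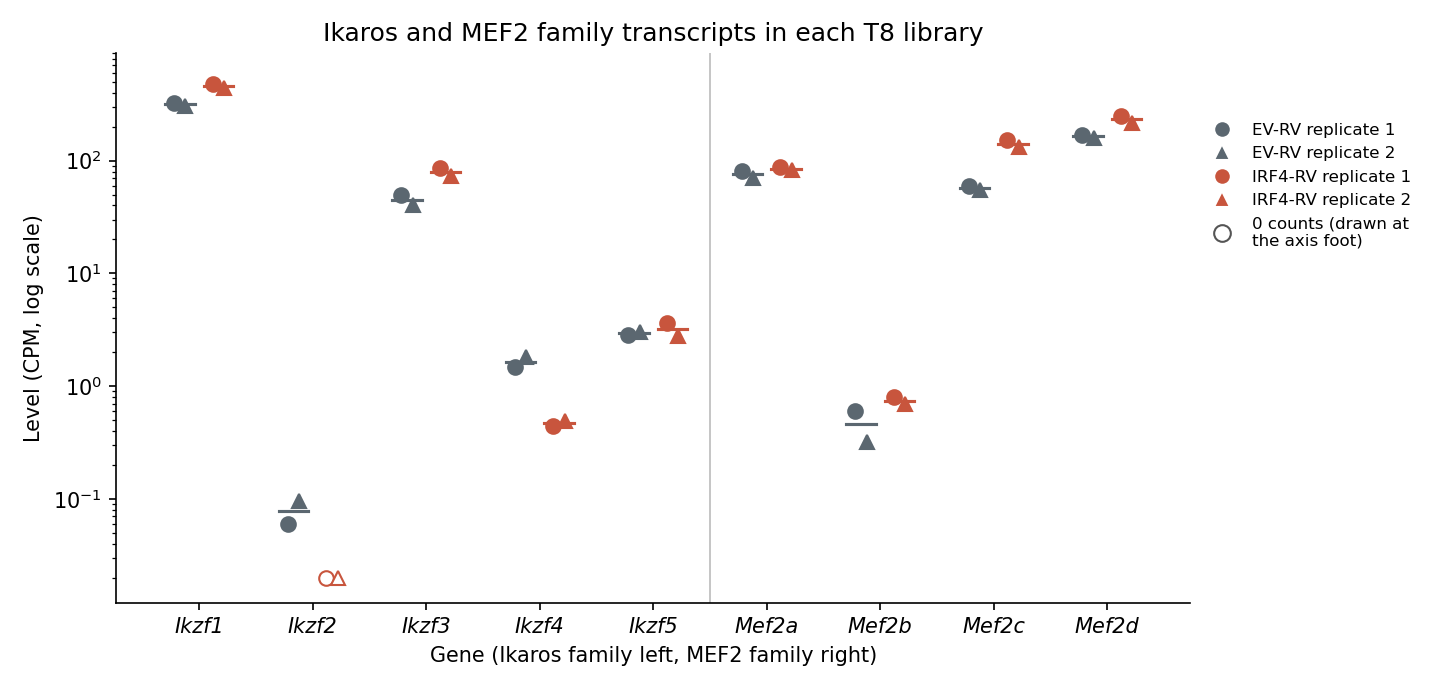
Level of each of the 9 genes in each library, in CPM on a log axis. Circles are replicate 1, triangles are replicate 2, horizontal bars are group means, and open symbols at the foot stand for 0 counts. The IRF4-RV libraries lie above the EV-RV libraries for *Ikzf1*, *Ikzf3*, *Mef2c* and *Mef2d* and below them for *Ikzf4*, while those of *Ikzf5* overlap. The IRF4-RV libraries also lie above for *Mef2a* and *Mef2b*, which were not called, and below for *Ikzf2*, which was not tested.

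In the MEF2 family, *Mef2c* and *Mef2d* rose, and *Mef2a* and *Mef2b* did not pass the test. *Mef2c*, which is needed for B-cell proliferation and survival downstream of the receptor, had the highest log2 fold change of all 8 members tested. Its counts were 1971 and 1727 in the controls and 5110 and 4810 after IRF4-RV, or 59.1 and 54.8 CPM against 150.9 and 132.1 CPM. The lower IRF4-RV library exceeded the higher EV-RV library by 124%. The fit gave a log2 fold change of 1.31 (SE 0.0935, adjusted p = 6.47e-05 by edgeR), or 1.41 without IRF4-RV replicate 2. A called rise at least as large was found for 475 genes, 3.25% of those tested. Macrophages also express *Mef2c*. In the macrophage and granulocyte list *Mrc1* went from 24 and 23 counts to 260 and 230 and *Ly6g* from 1 and 0 to 71 and 58, *Csf1r* had at most 3 counts, and *Adgre1*, *S100a8* and *S100a9* were at 0 in every library. The part of such cells in the rise of *Mef2c* was not tested.

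*Mef2d*, the most abundant MEF2 transcript, had 5650 and 4983 counts in the controls and 8366 and 7899 after IRF4-RV. This gave 169.3 and 158 CPM against 247 and 217 CPM, without overlap. The rise in log2 terms was 0.50 (SE 0.0879, adjusted p = 0.00548 by edgeR). It lay between 0.39 and 0.60 whichever library was left out, the higher value without IRF4-RV replicate 2. Its 95% interval of 0.30 to 0.71 did not reach that of *Mef2c*, 1.10 to 1.53.

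*Mef2a*, a widely expressed member, had 2704 and 2215 counts in the controls and 2944 and 2973 after IRF4-RV. The libraries stood at 81 and 70.3 CPM against 86.9 and 81.7 CPM, only 0.759% apart between the closest libraries of the groups. The log2 fold change, 0.16 (SE 0.0936, adjusted p = 0.285 by edgeR), did not pass the test, and the 95% interval from -0.06 to 0.37 ended at a 1.295-fold rise. *Mef2b*, best known from germinal center B cells, had 20 and 10 counts in the controls and 27 and 25 after IRF4-RV, or 0.599 and 0.317 CPM against 0.797 and 0.687 CPM. The log2 fold change, 0.68 (SE 0.465, adjusted p = 0.345 by edgeR), had a 95% interval from -0.39 to 1.76, which spans both 0 and the value of *Mef2c*. *Mef2b* shares 62 exon bases with *Borcs8* on the same strand, a gene with at least 835 counts in every library. *Borcs8* was itself called higher with IRF4-RV (log2 fold change 0.37, edgeR adjusted p = 0.0201). The part of *Borcs8* in the counts of *Mef2b* was not tested.

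Of the 8 members tested, 5 were called (62.5%, against 29.7% of all genes tested), 4 of them higher (50%, against 16%) and 1 lower (12.5%, against 13.7%). The libraries of the groups did not overlap for 7 of the 8 (87.5%), while this was so for 61.3% of all genes tested. *Ikzf2* is not in these counts.

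**Figure D3:**
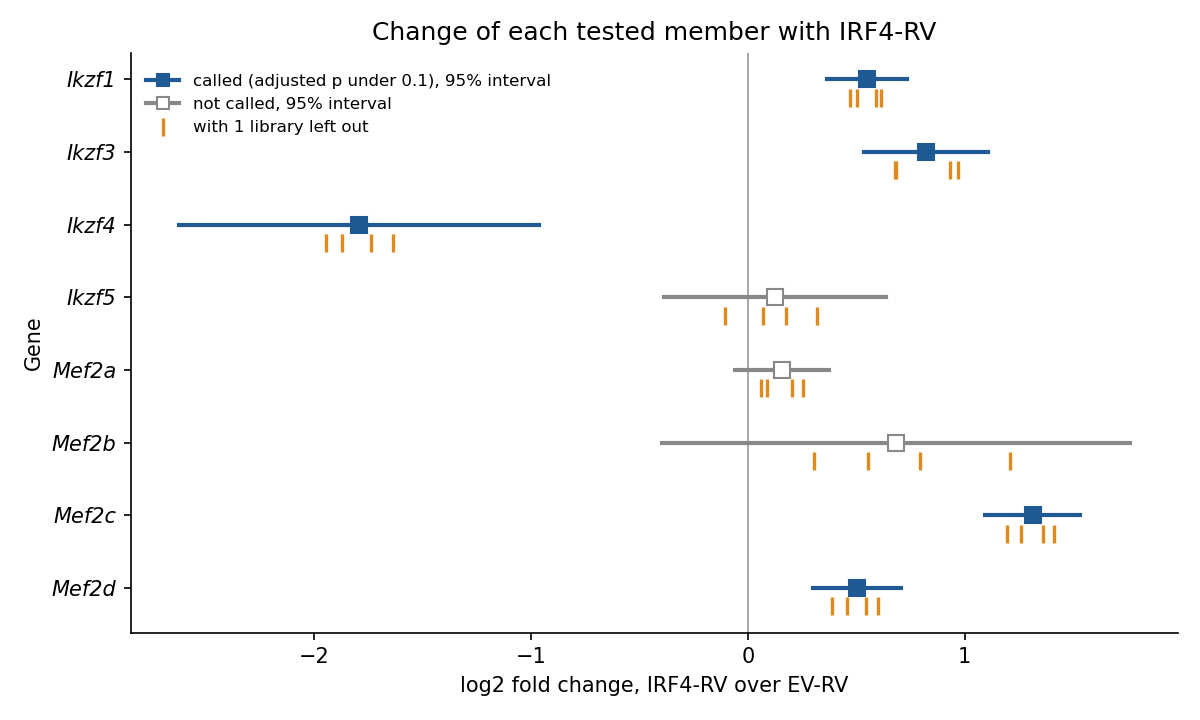
Log2 fold change (IRF4-RV over EV-RV) of the 8 tested members, with 95% intervals from the edgeR fit as horizontal lines. Filled squares were called at an FDR of 0.1, open squares were not, and orange ticks show the value with each of the 4 libraries left out in turn. The interval of *Mef2c* (1.10 to 1.53) lies above that of *Mef2d* (0.30 to 0.71), and *Ikzf5* is the gene whose ticks fall on both sides of 0.

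Ikaros proteins recruit the NuRD complex, which joins the Mi-2 remodelers (*Chd3*, *Chd4*) to histone deacetylases, and the corepressors Sin3 and CtBP. Of 17 such partners, 16 were tested, 1 was called higher and 5 lower (37.5% called, against 29.7% of all genes), with a median log2 fold change of -0.10 beside 0.01 for all genes tested. *Chd4* itself did not pass the test, with 13105 and 8773 counts against 11900 and 10360. Among the called partners, *Hdac1* rose by 0.25 on the log2 scale (edgeR adjusted p = 0.0392), while *Ctbp2* fell by 0.57 (edgeR adjusted p = 0.00273) and *Rbbp7*, a histone chaperone, fell by 0.34 (edgeR adjusted p = 0.0113). With each library left out in turn, between 2 and 6 of the partners were called. The lowest counts were 2 without IRF4-RV replicate 1 and 3 without IRF4-RV replicate 2, and *Hdac1* lost its call in both cases and with scaling by library size alone.

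Of 19 genes linked in B progenitors to Ikaros or Aiolos, 17 were tested, 5 were called higher and 8 lower (76.5% called, against 29.7% of all genes), and the median was -0.29. The list holds *Igll1*, *Vpreb1*, *Vpreb2* and *Blnk*, which the paper had reported as changed in T8 cells after IRF4-RV. Some of these calls were thus known beforehand, and the share called is a description only. *Dntt*, the template-independent polymerase of V(D)J joining, fell by 1.55 on the log2 scale (edgeR adjusted p = 0.00575). *Vpreb1*, a surrogate light chain gene, had a log2 fold change of -1.49 (edgeR adjusted p = 3.82e-05). This value is uncertain in that its reads could be shared with the near-identical *Vpreb2* and with the overlapping *Top3b*, which was not examined here. *Vpreb2* and *Igll1* had log2 fold changes of -1.32 and -1.30 (edgeR adjusted p = 8.62e-05 and 5.95e-05). The largest rises were those of *Ccnd2*, a cyclin of the G1 phase, by 1.37 (edgeR adjusted p = 2.6e-05), and of *Foxo1*, an activator of recombination genes, by 1.10 (edgeR adjusted p = 0.000144). *Myc*, chosen here after its values were seen, went from 281.1 ± 2.37 CPM in the controls down to 132.4 ± 13.3 CPM (SD, n = 2), with a log2 fold change of -1.09 (edgeR adjusted p = 0.000133). *Ccnd3*, the cyclin of large pre-B cells and likewise chosen afterwards, fell from 699.8 ± 28.8 CPM down to 401.5 ± 5.49 CPM (SD, n = 2), with a log2 fold change of -0.80 (edgeR adjusted p = 0.000241). *Rag1* and *Rag2* were at 0 or 1 counts in every library and were not tested.

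Of 25 regulators of MEF2 activity, 22 were tested, 5 were called higher and 5 lower (45.5% called, against 29.7%), and the median was -0.04. The calcineurin subunits that were called were catalytic, *Ppp3cc* with a rise of 0.84 (edgeR adjusted p = 0.000247) and *Ppp3ca* with a rise of 0.54 (edgeR adjusted p = 0.00509). *Ppp3cb*, likewise catalytic, and *Ppp3r1* did not pass the test, with log2 fold changes of -0.02 and -0.10. *Rcan1*, a regulator of calcineurin, fell by 0.53 (edgeR adjusted p = 0.0232). *Camk2d*, a calcium/calmodulin-dependent kinase, had 19467 and 19170 counts in the controls and 8884 and 9343 after IRF4-RV, and fell by 1.20 (edgeR adjusted p = 2.93e-05). Among the class IIa histone deacetylases that hold MEF2 in a repressive state, *Hdac4* fell by 0.59 (edgeR adjusted p = 0.0262), from 474 and 443 counts to 363 and 293, and by 0.39 without IRF4-RV replicate 2. *Hdac7*, the most counted of the class, did not pass the test, with a log2 fold change of 0.10 (edgeR adjusted p = 0.402).

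Of 15 genes linked to MEF2, 13 were tested, 3 were called higher and 2 lower (38.5% called, against 29.7%), and the median was 0.15. Without EV-RV replicate 1, and likewise without EV-RV replicate 2, 3 genes were called in all. *Klf2*, a quiescence factor downstream of ERK5 and MEF2, had 370 and 291 counts in the controls and 1471 and 1506 after IRF4-RV, a log2 fold change of 2.06 (edgeR adjusted p = 2.45e-05) that lay from 1.94 to 2.19 whichever library was left out. *Jun* had 35 and 33 counts in the controls and 54 and 165 after IRF4-RV, a log2 fold change of 1.55 (edgeR adjusted p = 0.0512). Without IRF4-RV replicate 2, the library with the most stromal signal, it was 0.61, and the call was also lost without either EV-RV library. The part of the stromal signal in this rise was not tested. *Egr1*, an immediate early gene, fell by 0.71 (edgeR adjusted p = 0.00549). *Il7r* fell by 0.29 (edgeR adjusted p = 0.0686) and lost its call without each of 3 libraries, EV-RV replicate 1, EV-RV replicate 2 or IRF4-RV replicate 2. *Nr4a1*, a classical MEF2 target, did not pass the test, with 161 and 194 counts against 210 and 227. The lists overlap, since *Il7r*, *Rag1* and *Rag2* are also among the genes linked to Ikaros or Aiolos. *Hdac9* is likewise among the regulators of MEF2 activity.

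**Figure D4:**
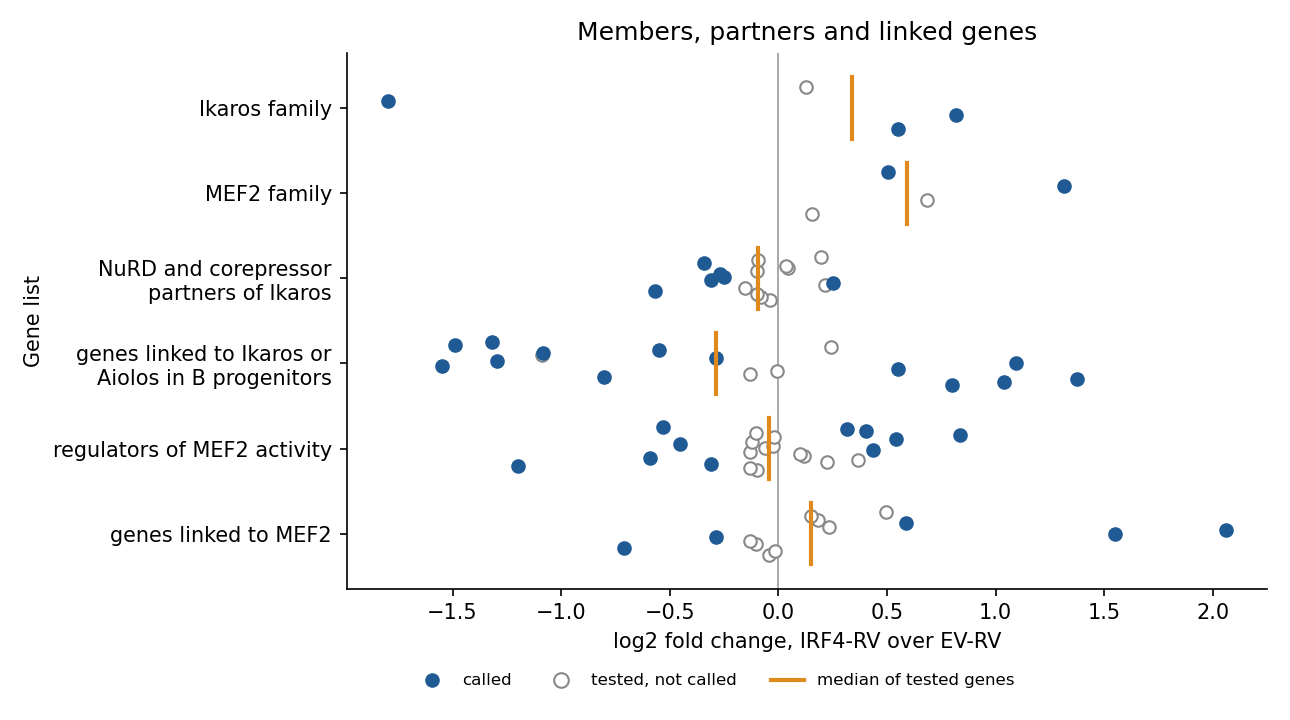
Log2 fold change (IRF4-RV over EV-RV) of each tested gene of both families and of the 4 lists of partners, regulators and linked genes. Filled points were called at an FDR of 0.1, open points were not, and orange bars are medians of the tested genes. The linked genes of Ikaros and Aiolos spread from -1.55 for *Dntt* to 1.37 for *Ccnd2*, while the Ikaros partners lie between -0.57 for *Ctbp2* and 0.25 for *Hdac1*.

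The genes with the pattern most like *Mef2c* over the 4 libraries were *Palm*, *Manea* and *Ppm1k*, with root mean square distances of 0.0239, 0.0331 and 0.0363 in centered log2 CPM among 11757 genes compared. Within a distance of 0.1 of *Mef2c* there were 60 genes. For *Ikzf4* the nearest were *Mylpf*, *Lta* and *Gm8332*, at 0.0247, 0.0787 and 0.0886, and 4 genes lay within 0.1. With 4 libraries this likeness mostly reflects a similar log2 fold change.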

How the data were processed

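Bulk RNAseq of T8 cells was analyzed, 2 EV-RV and 2 IRF4-RV libraries, grouped by sample title. Per the paper's methods and the processing notes, the authors aligned reads to GRCm38 with STAR (version 2.4.0j), counted genes with featureCounts and deposited raw counts without normalization. How strand and multi-mapping reads were handled is not given in the sources used here. Of 55359 identifiers, 52083 matched GENCODE M21, which gave symbols, positions and lengths. The other 3276 held at most 0.486% of a library.

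Genes passing filterByExpr were tested in R 4.3.3 with edgeR 4.0.16 (TMM, quasi-likelihood F test, Benjamini-Hochberg over all genes tested, FDR 0.1 as in the paper), without a replicate block. Standard errors are the log2 fold change over the square root of F. The procedure was tested on simulated counts, drawn independently for each library. These hold neither deviations shared by same-numbered libraries nor the stromal signal of IRF4-RV replicate 2, so they cannot show how either affects the calls. Replicates differed beyond sampling noise (chi-square per degree of freedom 14.1 and 13.1). P-values rest on the spread between the libraries of a group, which the fit moderates for each gene with that of the other genes. Limits from 3 counts cover counting error only.

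The members and gene lists were chosen with earlier results of these data known, and the motifs and printed windows after the values were seen. Named are all members, *Irf4*, up to 2 called rises and 2 called falls of each list, and the 3 genes nearest to the members with the largest called rise and fall, with a mean of at least 50 counts. Others were added after their values were seen. Alternatives were DESeq2 1.42.0, DESeq2 size factors, library size only, other filters, an FDR of 0.05, the replicate block, the longest transcript as gene length and leaving out each library.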

Additional observations from a re-analysis of the deposited data

How the results depend on the processing

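All 5 called members kept their direction and their call under each alternative run (10 each), with log2 fold changes from 0.46 to 0.61 for *Ikzf1*, 0.68 to 0.97 for *Ikzf3*, -1.95 to -1.64 for *Ikzf4*, 1.19 to 1.41 for *Mef2c* and 0.39 to 0.60 for *Mef2d*. Of these, 4 leave out a library, so that 1 group holds a single library assumed to vary like the other group. The change of *Ikzf5*, not called in any setting, reversed without IRF4-RV replicate 1, to -0.11, and ranged up to 0.32 without IRF4-RV replicate 2. *Mef2b* could not be fitted with at least 1 CPM in 2 libraries, which it does not reach. With library size only, all genes tested had a median of -0.0832 on the log2 scale (0.00726 with TMM), and no tested member changed direction. With the replicate number as a block, 6394 genes were called, against 4349, and *Mef2a* passed the threshold (log2 fold change 0.16, edgeR adjusted p = 0.0462, against 0.285 in the main fit without the block). Deviations of same-numbered libraries correlated across genes with r = 0.26, but with 2 pairs the numbers are not shown to pair the libraries. The block changed no other call of a member. An FDR of 0.05 left 3 called genes linked to MEF2, against 5, and with each library left out between 3 and 6 were called. The count of called Ikaros partners ranged from 2 to 6 with each library left out. The cause was not tested. With the longest transcript as gene length, levels of members and families were higher, most for *Mef2a* and *Mef2c*, whose exon union is longest. Depth limits *Ikzf2* and *Mef2b*, and to a lesser degree *Ikzf4*.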
